A study of Mus musculus with 14 samples.

Results

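The glucocorticoid (GC) receptor (GR), encoded by *Nr3c1*, and 8 genes of the chaperone machinery that carries it were read from 14 microarrays of mouse colon. The members were *Nr3c1*, the immunophilins *Fkbp5* and *Fkbp4*, the heat shock protein genes *Hsp90aa1* and *Hsp90ab1*, the cochaperones *Ptges3* and *Stip1*, and *Hspa8* and *Dnajb1*, which act before HSP90. Every probe whose accession in the array design matched one of these genes in RefSeq was taken, which gave 19 of 41174 probes and 9 of 19096 named genes. *Nr3c1* had 4 probes, *Fkbp5* had 3, *Hsp90aa1* and *Stip1* had 1 each, and the other genes had 2. All 19 probes were well above background on all 14 arrays and none was saturated.

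All mice were male C57BL/6 and were adrenalectomized (ADX), which removes the main source of endogenous GCs. Flox mice were homozygous for the GR fl/fl allele and served as controls, and GR iKO mice carried the same allele together with Villin-cre, which is active in intestinal epithelium and leaves GR in other cells of the gut wall. After 2 weeks of rest the mice received PBS or 1 mg/kg of dexamethasone (DEX), a synthetic GC, by i.p. injection, and the colon was taken 6 hours later. The labels give an age of 8 to 10 weeks, whereas the study's methods give an older age at ADX. PBS was given to 4 Flox and 3 GR iKO mice and DEX to 3 Flox and 4 GR iKO mice, and each mouse was read on 1 array. The arrays of a group share 1 slide that holds no other group, and in every comparison slide and group cannot be told apart.

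Without hormone, GR waits in the cytosol in a complex that is built in steps. HSP70 proteins with an HSP40 partner bind the newly made receptor, the adaptor HOP passes it to HSP90, and p23 holds the closed HSP90 complex in which the receptor can bind steroid. The immunophilin FKBP51 keeps affinity for hormone low, and on hormone binding it gives way to FKBP52, which links the complex to transport into the nucleus. *Fkbp5*, the gene of FKBP51, is itself switched on by GR and closes a negative feedback loop, and it is widely used as a readout of GC action.

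Levels are given as the log2 signal of a probe minus the 75th percentile of its array, so a level of 0 is as bright as that percentile. The 75th percentile of the raw intensities lay between 566 and 774 on the 14 arrays. In Flox mice it ran from 688 to 774 with PBS and from 568 to 738 with DEX. In GR iKO mice it ran from 709 to 757 with PBS and from 566 to 617 with DEX, so these GR iKO groups did not overlap in raw brightness. The part of this in the differences was not tested. Differences were tested with limma on all 41174 probes, and a probe was called when its Benjamini-Hochberg adjusted p was under 0.05. Levels of different probes cannot be set against each other. Since the RNA came from whole colon, fewer cells of a type and less RNA per cell cannot be told apart.

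*Nr3c1* was lower in the colon of GR iKO mice than in Flox mice, with and without DEX, and part of the signal remained. At the brightest probe (A_52_P138090), the levels of the 4 Flox mice given PBS were 1.40, 1.48, 1.46, and 1.28. The 3 Flox mice given DEX had levels of 1.13, 1.13, and 1.34. The 3 GR iKO mice given PBS had levels of 0.79, 0.44, and 0.28, and those of the 4 GR iKO mice given DEX were −0.14, −0.08, 0.04, and 0.00. Every GR iKO array therefore lay below every Flox array at this probe, while the Flox arrays with PBS and with DEX overlapped.

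Under PBS the difference of *Nr3c1* at this probe was −0.90 (SE 0.12, adjusted p = 0.0162), a signal of 53.5% of that in Flox mice. Under DEX it was −1.24 (SE 0.12, adjusted p = 0.00319), or 42.2% of the Flox signal. The interaction, in which the DEX response of Flox mice is taken off that of GR iKO mice, was −0.34 (95% interval −0.71 to 0.02, adjusted p = 0.452), so a change of the genotype difference with DEX was not detected. Leaving out Flox PBS replicate 3 gave −0.88 under PBS, which was no longer called.

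Probes A_52_P63106 and A_52_P254174 of *Nr3c1*, the next in brightness, gave similar differences. The former fell from between −1.70 and −1.52 in Flox mice to between −2.58 and −2.23 in GR iKO mice under PBS, a difference of −0.86 (SE 0.13, adjusted p = 0.0284). The latter fell from between −3.25 and −2.94 to between −4.33 and −4.04, a difference of −1.14 (SE 0.15, adjusted p = 0.0183). Under DEX their differences were −1.10 (adjusted p = 0.00662) and −1.27 (adjusted p = 0.00866), and at both probes the genotypes did not overlap. In the 14 fits that leave out 1 array, both probes were always called under DEX. Under PBS the call was kept in 9 of these fits at A_52_P63106 and in 12 at A_52_P254174.

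The dimmest *Nr3c1* probe (A_51_P355693) was not called in any of the 5 comparisons. Its difference under PBS was −1.07 (95% interval −2.14 to −0.01, adjusted p = 0.636), with GR iKO arrays between −5.01 and −4.48 and Flox arrays between −3.90 and −3.34. Among the GR iKO mice given DEX, replicate 2 had a level of −2.54 and the others lay between −5.18 and −4.71. With that array included the difference under DEX was −0.35 (adjusted p = 0.777). The probes of *Nr3c1* could not be placed relative to the deleted exons from the sources used here, so they check the labels of genotype without saying which part of the transcript remained.

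Of the 19 probes, 3 were lower and 0 were higher in GR iKO mice under PBS, and all 3 were *Nr3c1*. Among all probes tested, 0.0899% were lower and 0.0704% were higher in this comparison. Under DEX 5 of the 19 probes were lower and 0 were higher, 3 of *Nr3c1* and 2 of *Fkbp5*, where 0.126% of all probes were lower and 0.158% were higher. These comparisons use different arrays from each other but each shares arrays with the DEX comparisons that follow.

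**Figure D1:**
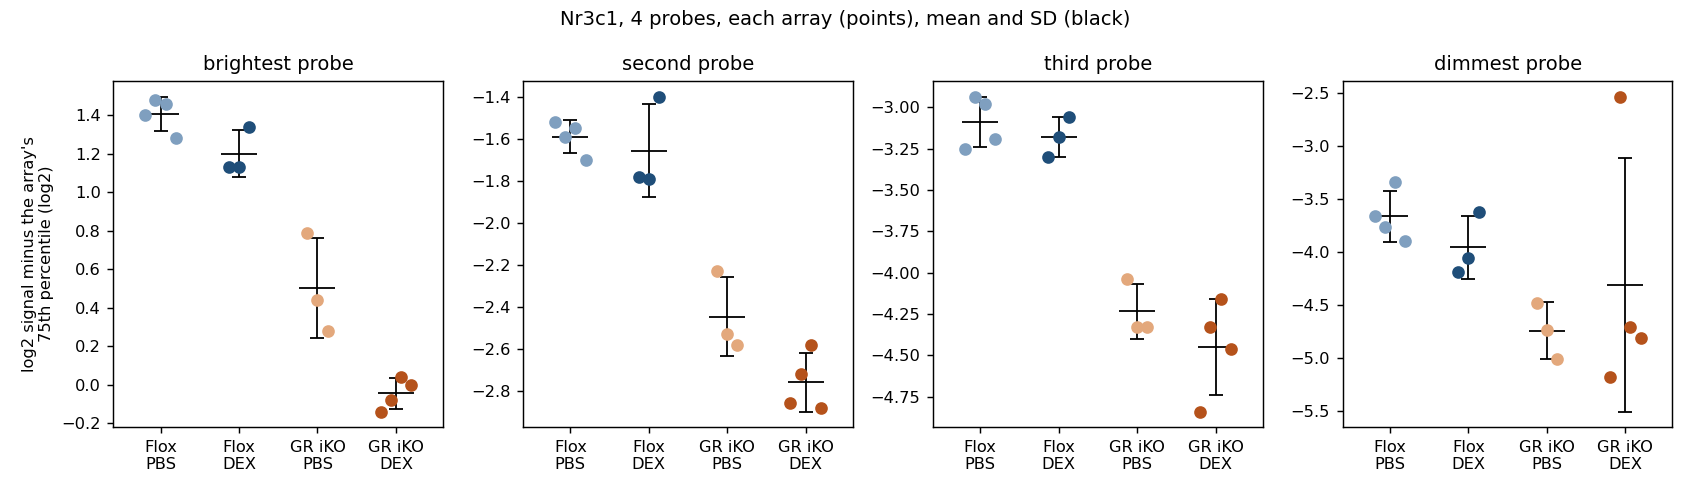
Log2 level of the 4 *Nr3c1* probes (vertical axis, log2 signal minus the 75th percentile of the array, a separate scale for each probe) in the 4 groups. Points are arrays and black lines are the group mean and SD. GR iKO arrays lie below Flox arrays at the first 3 probes, and at the dimmest probe 1 GR iKO array with DEX stands at −2.54.

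Colon epithelium markers were checked beside this result, since Villin-cre acts in those cells. All 9 of the 9 markers (*Epcam*, *Cdh1*, *Vil1*, *Krt8*, *Krt20*, *Cdx2*, *Slc26a3*, *Car1*, and *Aqp8*) were well above background on all arrays, and with limma none was called in any comparison. The log2 of their summed signal lay between 9.98 and 10.03 in Flox mice with PBS, between 9.86 and 10.06 in Flox mice with DEX, between 9.99 and 10.17 in GR iKO mice with PBS, and between 9.68 and 10.28 in GR iKO mice with DEX. The epithelial signal thus overlapped between genotypes under both treatments.

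No *Nr3c1* probe was called with DEX in Flox mice, with the 4 differences between −0.30 and −0.07 and adjusted p of 0.383 or more. At the brightest probe the difference was −0.21 (95% interval −0.46 to 0.05). In GR iKO mice the brightest probe fell by 0.55 with DEX (SE 0.12, adjusted p = 0.0143), a call that held with each array left out in turn. The next 2 in brightness differed by −0.31 (adjusted p = 0.133) and −0.21 (adjusted p = 0.41), and the dimmest by 0.43 (adjusted p = 0.605). The fall was thus called at 1 probe, with the next 2 in the same direction. The mean of the 4 probes differed by −0.16 and was not called. That mean, which takes in the dimmest probe and its array at −2.54, was also not called between the genotypes, with −1.0 under PBS and −0.99 under DEX.

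*Fkbp5* gave the largest change of the 9 genes, a rise with DEX in Flox mice. Its promoter is shown here because it is the member that GR is known to switch on. RefSeq places the start of *Fkbp5* on the minus strand, and the 250 bases before it are chr17:28486150-28486399 of GRCm38.p6, written 5′ to 3′ with any motif match in capitals. The same stretch of *Fkbp4*, its closest relative among the members, is chr6:128438657-128438906 on the minus strand.
Fkbp5: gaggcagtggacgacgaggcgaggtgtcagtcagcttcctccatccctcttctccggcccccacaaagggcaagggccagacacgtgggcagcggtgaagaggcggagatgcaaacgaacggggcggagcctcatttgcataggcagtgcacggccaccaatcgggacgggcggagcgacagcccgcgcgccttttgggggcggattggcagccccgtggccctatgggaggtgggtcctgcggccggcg
Fkbp4: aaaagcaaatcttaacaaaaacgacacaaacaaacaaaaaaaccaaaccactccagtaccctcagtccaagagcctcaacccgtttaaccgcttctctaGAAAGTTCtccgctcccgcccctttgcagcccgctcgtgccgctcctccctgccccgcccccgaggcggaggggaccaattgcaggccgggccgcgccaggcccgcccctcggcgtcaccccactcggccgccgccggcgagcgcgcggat

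Both promoters were searched on both strands for the GR half-site AGAACA and for the core of the heat shock element in its 2 arrangements, GAANNTTC and TTCNNGAA. Neither held the GR half-site, which is in 16.1% of the 32851 promoters of that length in the table. The *Fkbp4* promoter held GAANNTTC once, with its first base 151 bases before the start (capitals), and 6.69% of promoters hold it. TTCNNGAA was in neither promoter and in 7.17% of all of them. These are letter matches in a short window and the arrays hold no measurement of binding. The rest of each gene and its surroundings were not searched, so the lack of a half-site here holds for this window alone.

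At the brightest *Fkbp5* probe (A_51_P383689), the levels of the Flox mice given PBS were −0.55, −1.47, −1.94, and −0.67. With DEX the 3 Flox mice had levels of 2.73, 2.52, and 2.23. The GR iKO mice given PBS had levels of −0.08, −0.85, and −0.90, and those given DEX had levels of 0.02, 0.79, 0.23, and 0.27. The order of the groups was Flox with DEX, GR iKO with DEX, GR iKO with PBS, and Flox with PBS, and only the last pair overlapped.

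DEX raised *Fkbp5* in Flox mice by 3.65 (SE 0.33, adjusted p = 0.000686), which is 12.6-fold, and this was called with each array left out in turn. The second probe (A_52_P481493) rose by 3.13 (SE 0.44, adjusted p = 0.00505) and the dimmest (A_52_P337899) by 3.30 (SE 0.32, adjusted p = 0.000752). These were the only 3 of the 19 probes called higher with DEX in Flox mice, where 0 were called lower. Of all probes tested, 1.63% were higher and 1.54% were lower in that comparison.

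In GR iKO mice *Fkbp5* was also brighter with DEX on every array than with PBS on any, but the size was smaller and the test was passed at 1 probe of 3. The brightest probe differed by 0.94 (95% interval 0.21 to 1.67, adjusted p = 0.0892), or 1.91-fold. The second probe rose by 1.49 (SE 0.44, adjusted p = 0.0469), a call that was kept in 2 of the 14 fits that leave out 1 array, those without Flox PBS replicate 1 or 3, with values between 1.34 and 1.69 over the 14. The dimmest differed by 0.82 (95% interval 0.12 to 1.51, adjusted p = 0.117).

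The interaction at the brightest *Fkbp5* probe was −2.71 (SE 0.47, adjusted p = 0.0436), which makes the response in GR iKO mice 15.2% of that in Flox mice as a ratio of fold changes. It was the only member probe called for the interaction, 1 lower and 0 higher, where 0.0461% of all probes were lower and 0.206% were higher. The call was close to the threshold. It was kept without Flox PBS replicate 1, Flox DEX replicate 4, or GR iKO PBS replicate 3 and was lost without any 1 of the other 11 arrays, at values between −2.88 and −2.45. The second and the dimmest probe gave −1.64 (adjusted p = 0.309) and −2.49 (adjusted p = 0.0512).

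Under DEX *Fkbp5* was lower in GR iKO mice than in Flox mice, by −2.17 at the brightest probe (SE 0.33, adjusted p = 0.0273), a signal of 22.3% of that in Flox mice. The dimmest probe gave −2.16 (SE 0.32, adjusted p = 0.023), and the second gave −1.57 (adjusted p = 0.156). At both called probes the call was lost without Flox DEX replicate 1 or 2 or GR iKO DEX replicate 1, 3, or 4, at values between −2.15 and −1.94. Under PBS no probe of *Fkbp5* was called between the genotypes, and the brightest gave 0.55 (95% interval −0.18 to 1.28, adjusted p = 0.786). Flox mice given PBS varied by 1.38 between the lowest and the highest array at this probe, against 0.50 in Flox mice given DEX.

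**Figure D2:**
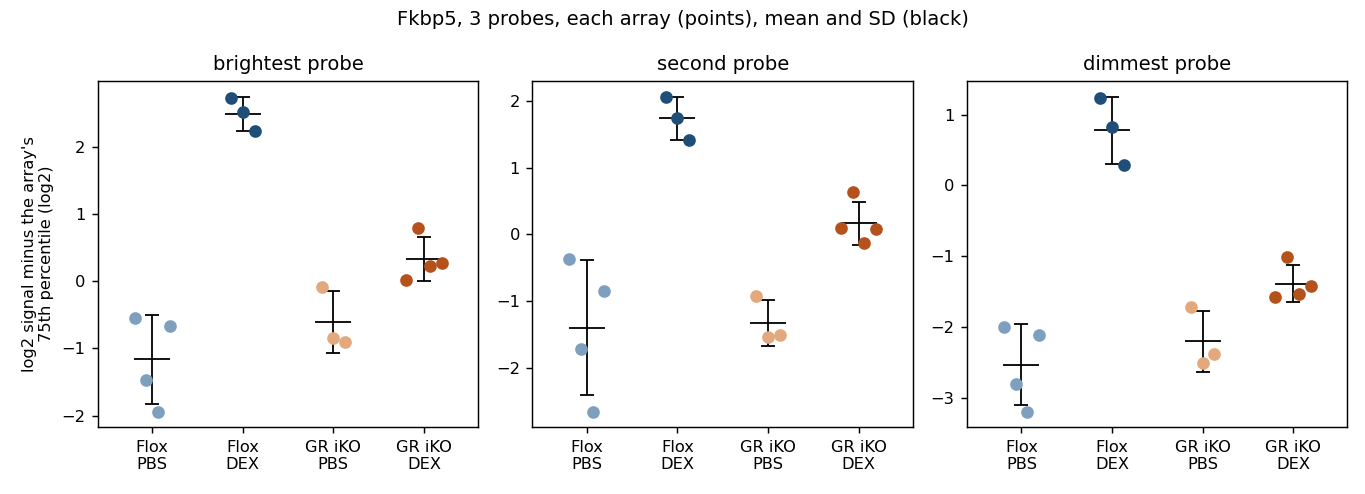
Log2 level of the 3 *Fkbp5* probes (vertical axis, log2 signal minus the 75th percentile of the array, a separate scale for each probe) in the 4 groups. Points are arrays and black lines are the group mean and SD. At each probe the 3 Flox arrays with DEX lie above all others, and the GR iKO arrays with DEX lie above those with PBS.

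The 3 probes of *Fkbp5* moved closely together over the 14 arrays, with r between 0.965 and 0.994, and also after the group means were taken off, with r between 0.923 and 0.961. The arrays and their RNA are common to the probes. The 4 probes of *Nr3c1* followed each other less closely, with r between 0.441 and 0.980.

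Other GR-induced genes were set beside *Fkbp5* from a list of 12, of which 11 were on the array and matched by accession. DEX raised 7 of the 11 where GR was intact (Flox) and 5 of the 11 in GR iKO colon, and lowered none in either, where 1.63% and 8.15% of all probes were higher. Their median difference was 1.64 for Flox and 0.69 for GR iKO colon, against medians over all probes of 0.06 and 0.09. *Sgk1*, a kinase gene that acts on sodium channels, followed the same pattern as *Fkbp5*, with a rise of 3.22 in Flox mice (adjusted p = 0.000828), a difference of 0.66 in GR iKO mice (adjusted p = 0.201), and an interaction of −2.56 (adjusted p = 0.0436).

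Other genes of that list were called in GR iKO mice too. *Pdk4*, a kinase gene that limits glucose oxidation, responded to DEX by 3.35 in Flox mice (adjusted p = 0.000975), while GR iKO mice gave 3.49 (adjusted p = 0.000641). *Tsc22d3*, the gene of the GC-induced leucine zipper protein, rose by 1.91 (adjusted p = 0.000686) and by 1.61 (adjusted p = 0.000865). The metallothionein gene *Mt2* rose by 2.52 (adjusted p = 0.00133) and by 0.99 (adjusted p = 0.037). *Dusp1*, a phosphatase gene that limits MAP kinase signaling, rose by 0.88 in GR iKO mice (adjusted p = 0.00993) and gave 0.60 in Flox mice (adjusted p = 0.086). No interaction was called for these 4 genes, with adjusted p of 0.125 for *Mt2*, 0.703 for *Tsc22d3*, 0.725 for *Dusp1*, and 0.956 for *Pdk4*.

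*Mt1*, the neighbor and relative of *Mt2*, was higher in GR iKO than in Flox mice under PBS, by 2.61 (SE 0.21, adjusted p = 0.000727). It rose by 1.64 with DEX in Flox mice (adjusted p = 0.003) and differed by 0.02 in GR iKO mice (adjusted p = 0.96). Its interaction of −1.62 was not called (adjusted p = 0.0516).

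**Figure D3:**
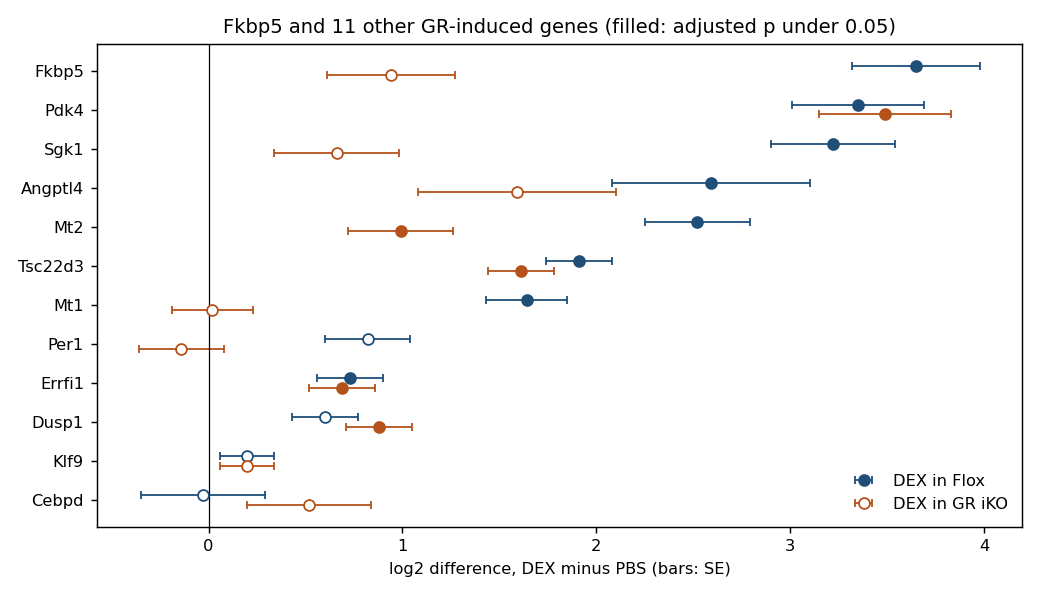
Log2 difference between DEX and PBS (horizontal axis) of *Fkbp5* and 11 other GR-induced genes in Flox and GR iKO mice, with the SE of the model as bars. Filled points were called by limma at an adjusted p under 0.05. *Fkbp5* and *Sgk1* differ widely between the genotypes, while *Pdk4* and *Tsc22d3* lie close together.

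The 7 chaperone genes were read by 12 probes. With DEX in Flox mice none of the 12 was called by limma and 0 had an unadjusted p under 0.05, as 19% of all probes had. Their differences ran from −0.15 to 0.17, with a median of 0.05, and the 95% intervals reached from −0.40 to 0.41. An unadjusted Student's t-test at 0.05 did pass *Hsp90aa1* (0.17) and the brighter *Hspa8* probe (0.16). With a normexp background correction 10 of the 12 lay below 0, with a median of −0.13 and 0 called. This correction moved the median of all probes by 0.50 in this comparison.

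Between the genotypes under PBS none of the 12 chaperone probes was called, and 1 had an unadjusted p under 0.05, as did 7.79% of all probes. The median was 0.10 and the range −0.12 to 0.30. Under DEX none was called, and 2 of the 12 had an unadjusted p under 0.05, near the 13.6% of all probes. All 12 lay below 0, with a median of −0.18, whereas the median over all probes was 0.04. With a normexp background correction only 7 of the 12 lay below 0, with a median of −0.04. This correction moved the median of all probes by −0.50 in this comparison, to below the median of the 12.

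With DEX in GR iKO mice 3 of the 12 chaperone probes fell, 1 each of *Fkbp4*, *Hsp90ab1*, and *Hspa8*. An unadjusted p under 0.05 was reached by 4 of the 12, where 27.7% of all probes had one. The median of the 12 was −0.18, and all lay below 0 (11 of them with quantile normalization), where the median over all probes was 0.09. Counting all 19 probes of the receptor and its chaperones, 4 were lower and 1 was higher, where 3.53% of all probes were lower and 8.15% were higher. The 2 comparisons that end in GR iKO mice with DEX share those 4 arrays. For the interaction none of the 12 chaperone probes was called, and 3 had an unadjusted p under 0.05, where 12.1% of all probes had one.

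Leaving out GR iKO PBS replicate 3, which was the highest of its group at *Fkbp4* and *Hspa8*, left none of the 3 chaperone calls and only *Nr3c1* of the 5 member calls. With the normexp correction none of the 19 probes was called in that comparison, although 8 had an unadjusted p under 0.05.

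**Figure D4:**
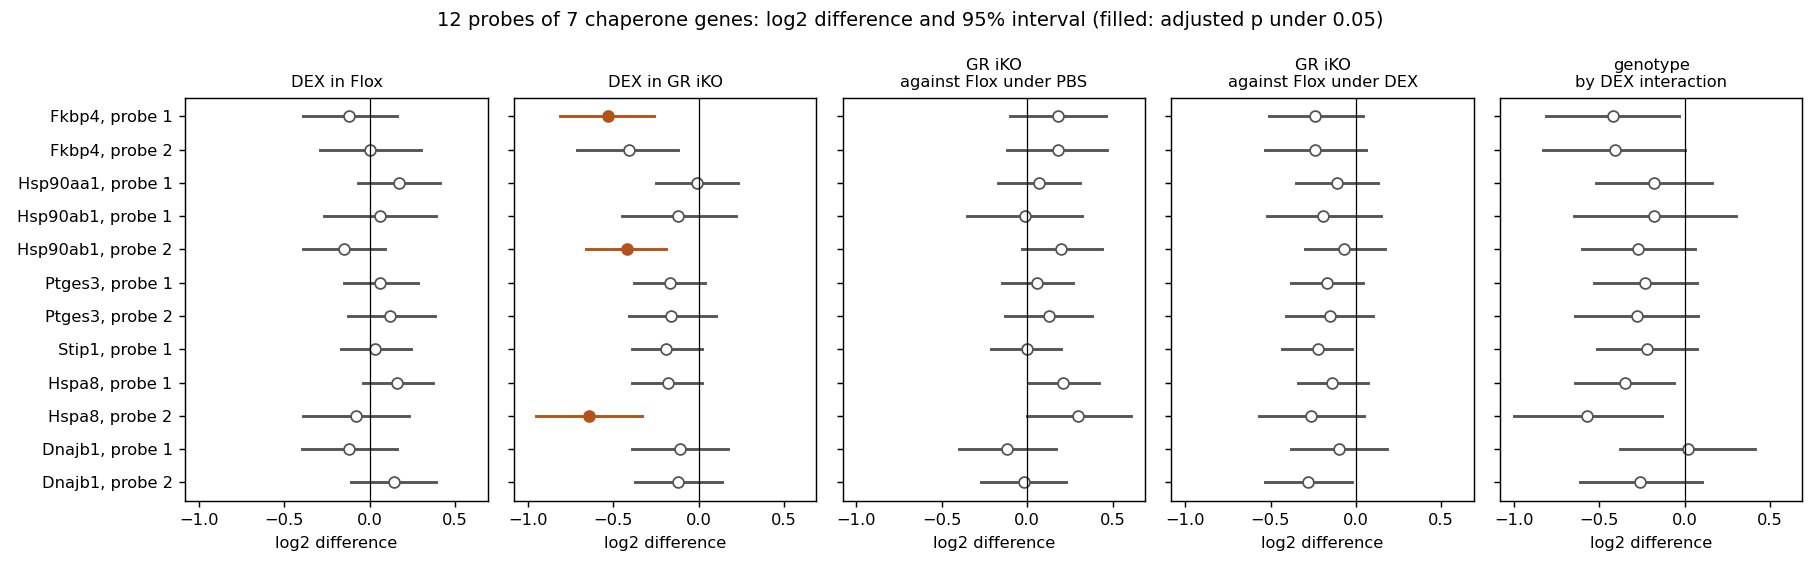
Log2 difference (horizontal axis, point) and its 95% interval (line) for the 12 probes of 7 chaperone genes in the 5 comparisons. Filled orange points were called by limma. The 3 called probes stand in the comparison of DEX with PBS in GR iKO mice.

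*Fkbp4* encodes FKBP52, the partner that replaces FKBP51 on the receptor. At its brighter probe the Flox mice given PBS had levels of 3.07, 2.94, 3.18, and 3.00, and those given DEX had levels of 3.00, 3.04, and 2.75. The GR iKO mice given PBS had levels of 3.23, 3.46, and 2.99, and those given DEX had levels of 2.65, 2.54, 2.85, and 2.74. All GR iKO arrays with DEX were below those with PBS, while the Flox groups overlapped.

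The difference of *Fkbp4* with DEX in GR iKO mice was −0.53 (SE 0.13, adjusted p = 0.0207), or 69.1% of the signal with PBS. It was −0.42 without GR iKO PBS replicate 3 and −0.48 without GR iKO DEX replicate 2, and in neither case called. The dimmer probe gave −0.41 (95% interval −0.71 to −0.12, adjusted p = 0.0683), and its groups did not overlap either. In Flox mice the brighter probe gave −0.12 (95% interval −0.39 to 0.16) and the dimmer 0.00 (95% interval −0.29 to 0.30). The interaction of −0.42 at the brighter probe was not called (adjusted p = 0.378), so the response was not shown to differ between the genotypes.

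*Fkbp5* and *Fkbp4*, the immunophilins that compete for the HSP90 complex, were each called in 1 DEX comparison at their brightest probe. For *Fkbp5* this was the rise of 3.65 in Flox mice, while the 0.94 of GR iKO mice was not called. For *Fkbp4* it was the −0.53 of GR iKO mice, while the −0.12 of Flox mice was not called. These calls do not set the genotypes apart for *Fkbp4*, whose interaction was not called by limma (adjusted p = 0.378). The second *Fkbp5* probe was called in GR iKO mice too, with a rise of 1.49 (adjusted p = 0.0469).

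*Hsp90aa1* encodes the inducible form of cytosolic HSP90. Its single probe ran from 5.22 to 5.37 in Flox mice with PBS, from 5.33 to 5.52 in Flox mice with DEX, from 5.09 to 5.51 in GR iKO mice with PBS, and from 5.28 to 5.47 in GR iKO mice with DEX. The groups overlapped in all comparisons and no difference was called, with values between −0.18 and 0.17. For Flox mice the 95% interval of the DEX response was −0.07 to 0.41, and for the GR iKO group it was −0.25 to 0.23.

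*Hsp90ab1* encodes the constitutive form, and 1 of its 2 probes was called. The brighter probe was not called with DEX in GR iKO mice (−0.12, 95% interval −0.45 to 0.22, adjusted p = 0.66), with levels of 4.55, 5.03, and 5.34 with PBS and of 5.07, 4.78, 4.80, and 4.77 with DEX. The dimmer probe fell by 0.42 (SE 0.11, adjusted p = 0.0283), from levels of 1.94, 2.02, and 2.29 with PBS to 1.82, 1.67, 1.53, and 1.64 with DEX. The interval of the brighter probe holds this value, so the probes were not shown to differ. The call was lost without GR iKO PBS replicate 3 or 4 or GR iKO DEX replicate 2 or 3, at values between −0.45 and −0.32.

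Over the 14 arrays the 2 probes of *Hsp90ab1* had r = 0.462, the lowest of the genes with 2 probes, where *Fkbp4* had r = 0.879, and with the group means taken off r was 0.656. GR iKO PBS replicate 2 was the lowest array of all at the brighter probe and GR iKO PBS replicate 4 the highest. The spread of that group at this probe (SD 0.40) was wider than in Flox mice with DEX (SD 0.03).

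*Hspa8*, the constitutive HSP70 that first binds the receptor, was also called at its dimmer probe only. At the brighter probe DEX gave −0.18 in GR iKO mice (95% interval −0.39 to 0.02, adjusted p = 0.23). At the dimmer probe the GR iKO mice given PBS had levels of 4.87, 5.24, and 4.78, and those given DEX had levels of 4.31, 4.16, 4.47, and 4.36, a fall of 0.64 (SE 0.14, adjusted p = 0.0154). Without GR iKO PBS replicate 3 the difference was −0.50 and was not called.

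In Flox mice neither *Hspa8* probe was called with DEX, with 0.16 (adjusted p = 0.387) and −0.08 (adjusted p = 0.803). The interaction was −0.35 at the brighter and −0.57 at the dimmer probe, with unadjusted p of 0.0232 and 0.0154 and adjusted p of 0.315 and 0.271. *Hsp90aa1*, *Hsp90ab1*, and *Hspa8* are known for near-identical processed copies in the genome, and the probe sequences were not among the files used, so which transcripts each probe read is uncertain.

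**Figure D5:**
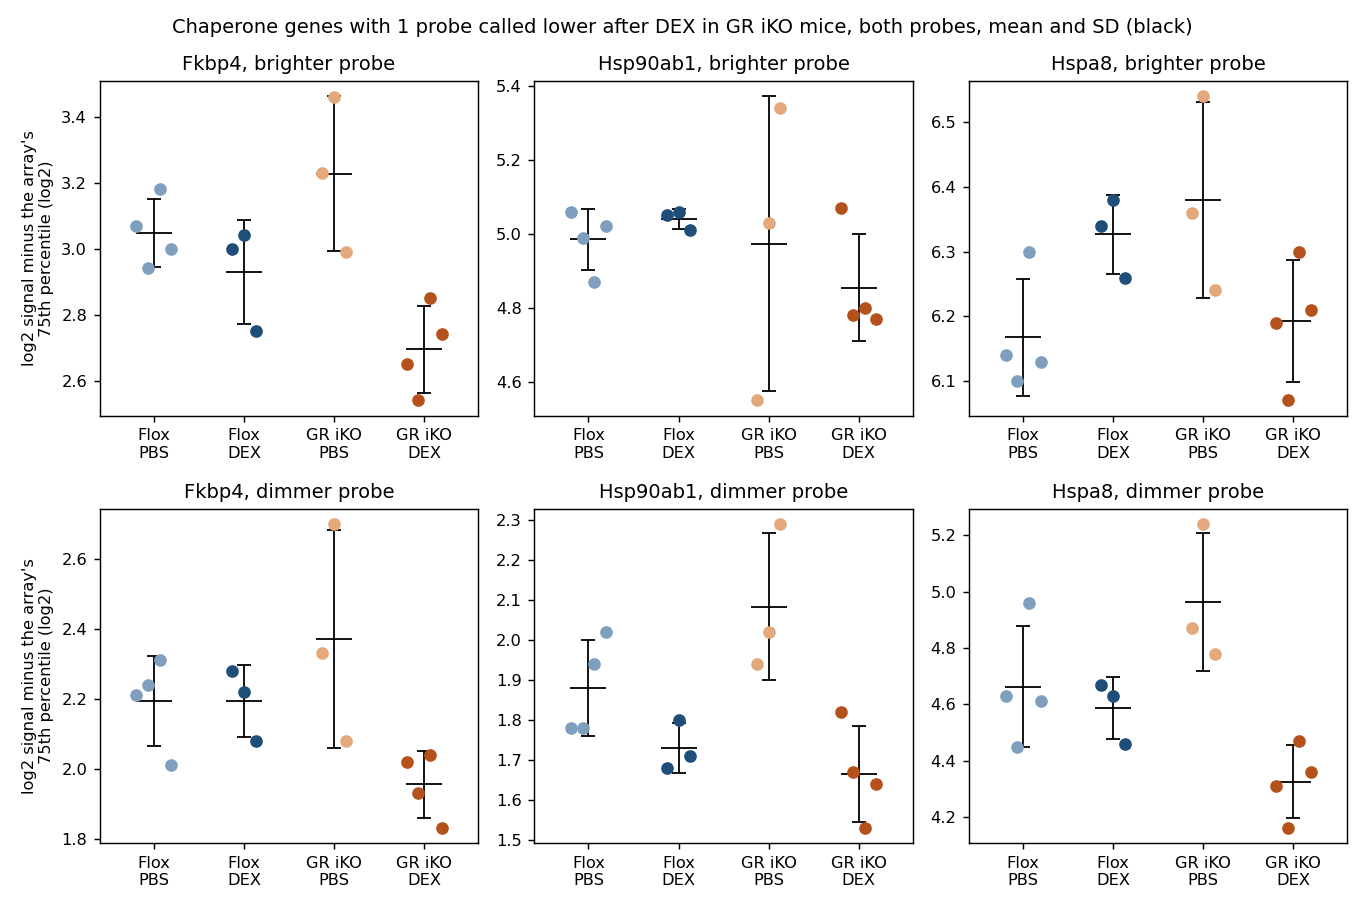
Log2 level (vertical axis, log2 signal minus the 75th percentile of the array, a separate scale for each panel) of both probes of *Fkbp4*, *Hsp90ab1*, and *Hspa8* in the 4 groups. Points are arrays and black lines are the group mean and SD. The GR iKO arrays with DEX lie below those with PBS at both probes of *Fkbp4* and at the dimmer probes of *Hsp90ab1* and *Hspa8*.

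*Ptges3*, *Stip1*, and *Dnajb1* were not called in any of the 5 comparisons. *Ptges3* encodes p23, and its brighter probe gave 0.06 with DEX in Flox mice (95% interval −0.15 to 0.28) and −0.17 in GR iKO mice (95% interval −0.38 to 0.04). *Stip1* encodes HOP, and gave 0.03 (95% interval −0.17 to 0.24) and −0.19 (95% interval −0.39 to 0.02). The 4 GR iKO arrays with DEX lay between 1.10 and 1.18 at *Stip1*, below the 3 Flox arrays with DEX between 1.27 and 1.40, a difference of −0.22 (adjusted p = 0.331). At the brighter *Ptges3* probe these GR iKO arrays (1.97 to 2.08) also lay below the Flox arrays (2.12 to 2.27). The difference was −0.17 (adjusted p = 0.481), and at the dimmer probe the groups overlapped.

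*Dnajb1* encodes an HSP40 that starts the HSP70 cycle and is strongly induced by heat. Its brighter probe gave −0.12 with DEX in Flox mice (95% interval −0.40 to 0.16) and −0.11 in GR iKO mice (95% interval −0.39 to 0.17). The levels of the 14 arrays at this probe lay between 4.30 and 4.86, and all groups overlapped. At the dimmer probe the GR iKO arrays with DEX (0.98 to 1.24) lay below the Flox arrays with DEX (1.27 to 1.51). That difference was −0.28 (adjusted p = 0.324).

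The wider chaperone network was read from lists, each gene by its brightest probe. Of 21 other genes of the cytosolic HSP90 and HSP70 machinery, among them *Cdc37*, *Ahsa1*, *Ppid*, and *Stub1*, none was called by limma in any comparison. Their medians ran from −0.11 to 0.06, and the number with an unadjusted p under 0.05 was 5 with DEX in Flox mice, 4 with DEX in GR iKO mice, 0 between genotypes under PBS, 4 under DEX, and 2 for the interaction. Of all probes, 19%, 27.7%, 7.79%, 13.6%, and 12.1% had such a p in these comparisons.

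Of 16 genes of the heat shock response, DEX raised 1 in Flox and 2 in GR iKO mice, where 1.63% and 8.15% of all probes were higher. *Hspb8*, a small heat shock protein gene of the autophagy pathway, had rises of 1.33 (adjusted p = 0.00103) in the Flox and 1.10 (adjusted p = 0.00142) in the GR iKO colon. *Hspb1*, which encodes the actin-protecting HSP27, rose by 1.27 in GR iKO mice (adjusted p = 0.00326) and gave 0.72 in Flox mice (adjusted p = 0.0643), with no interaction called (adjusted p = 0.463). The heat-inducible HSP70 genes on this list, *Hspa1a* and *Hspa1b*, were not called, although both lay above 0 with DEX in each genotype. *Hspa1a* gave 0.55 in Flox and 0.68 in GR iKO colon, with unadjusted limma p of 0.0209 and 0.00691. *Hspa1b* gave 0.60 and 0.53, with unadjusted p of 0.0067 and 0.0136. Before adjustment, 6 of the 16 genes in Flox and 5 in GR iKO colon had a p under 0.05. The shares of all probes were 19% and 27.7%.

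Chaperones of other compartments gave 1 call each, in a comparison where 3.53% of all probes were lower. Of 11 genes of the endoplasmic reticulum, *Canx*, the gene of the lectin chaperone calnexin, fell by 0.38 (adjusted p = 0.0212) with DEX in GR iKO colon. Of 6 genes of mitochondria, *Trap1*, the HSP90 of that compartment, fell by 0.51 in the same comparison (adjusted p = 0.0105).

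Of 17 steroid receptors, steroid enzymes, and receptor coregulators, *Hsd11b2* changed most. It encodes the enzyme that inactivates endogenous GCs and so protects the mineralocorticoid receptor. *Hsd11b2* rose by 1.53 with DEX in Flox mice (SE 0.25, adjusted p = 0.00969), had a genotype difference under DEX of −2.01 (adjusted p = 0.01), and had an interaction of −2.37 (adjusted p = 0.0265). With DEX in GR iKO mice it gave −0.84, below 0 and just short of a call (adjusted p = 0.0507). The coregulator genes *Ncoa2* and *Ncor1* rose by 0.39 (adjusted p = 0.02) and 0.42 (adjusted p = 0.0444) with DEX in GR iKO mice. No other gene of the list, which holds the mineralocorticoid receptor gene *Nr3c2*, was called.

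The genes whose levels followed the members most closely were sought among 14220 genes that were well above background on all 14 arrays. For *Fkbp5* these were *Serinc3* (r = 0.975), *Nxph3* (r = 0.963), *Arg2* (r = 0.962), *Slc25a47* (r = 0.958), and *Slc6a6* (r = 0.955), over 14 arrays that share their groups and slides. *Arg2* had a mean level of −4.43 in Flox mice with PBS, 0.96 in Flox mice with DEX, −3.49 in GR iKO mice with PBS, and −2.99 in GR iKO mice with DEX. For *Nr3c1* the closest were *Hspa13* (r = 0.865), *Plac8* (r = 0.864), *Trmt61b* (r = 0.861), *Irs4* (r = 0.856), and *Gfpt2* (r = 0.849). *Hspa13*, an HSP70 of microsomes that is no member here, went from a mean level of 1.79 in Flox mice with PBS to 1.51 in GR iKO mice with PBS, without a call (adjusted p = 0.356).

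Markers of other cells that carry GR moved in some of these comparisons, and their part in the results was not tested. With DEX in GR iKO mice the T cell genes *Cd3g* and *Cd8a* fell by 1.17 (adjusted p = 0.0257) and 1.81 (adjusted p = 0.0172), 2 of 6 on that list. The 6 did not move one way, since 4 lay below 0 and 2 above, with a median of −0.57 and the highest at 0.86, and 5 had an unadjusted p under 0.05. The log2 of the summed signal of the 6 ran from −0.13 to 0.55 with PBS and from −0.23 to −0.06 with DEX. The macrophage gene *Cd163* had rises with DEX of 1.00 (adjusted p = 0.0473) in the Flox and 1.26 (adjusted p = 0.00848) in the GR iKO colon, 1 of 6 markers. The other 5 macrophage markers lay below 0 in both genotypes, none of them called, and the median of the 6 was −0.57 in Flox and −0.40 in GR iKO mice. The log2 of their summed signal ran from 2.88 to 3.54 with PBS and from 2.65 to 2.92 with DEX in Flox mice, and from 3.03 to 3.40 and from 2.68 to 3.04 in the GR iKO groups. The smooth muscle gene *Myh11* rose by 0.90 in Flox mice (adjusted p = 0.0199), 1 of 6. All 6 smooth muscle markers lay above 0 in that comparison, between 0.42 and 0.94 with a median of 0.62, and all 6 had an unadjusted p under 0.05. The log2 of their summed signal ran from 8.44 to 8.69 in Flox mice with PBS and from 8.97 to 9.33 with DEX, the comparison in which *Fkbp5* rose. In GR iKO mice the median of the 6 was 0.21, none was called, and the sums ran from 8.68 to 8.94 and from 8.55 to 9.22. The goblet cell gene *Fcgbp* rose by 0.92 in GR iKO mice (adjusted p = 0.0472), 1 of 5, and the 5 lay between 0.27 and 0.92 with a median of 0.33. None of the 6 fibroblast markers and none of the 6 markers of B and plasma cells was called. With DEX the fibroblast medians were −0.58 in Flox and −0.31 in GR iKO mice, and those of B and plasma cells −0.90 and −0.94. Between the genotypes under PBS no T cell, B and plasma cell, or smooth muscle marker was called. Their medians there were 0.69, 1.01, and 0.35, and 4, 2, and 2 of 6 had an unadjusted p under 0.05, against 7.79% of all probes. Of 6 markers of enteric neurons and glia, DEX gave a higher call of *Ret* in GR iKO mice, but this gene was not well above background on any array.

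Exocrine pancreas genes varied between arrays of the same group. The mean level of the 8 genes matched ran from −3.76 to 5.49 over Flox mice with PBS, from −2.84 to 7.67 over Flox mice with DEX, from −3.79 to −3.67 over GR iKO mice with PBS, and from −3.40 to 4.07 over GR iKO mice with DEX. No gene of that list was called in any comparison, and its part in the levels of the members was not tested.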

How the data were processed

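Colon RNA of 14 mice was measured on one-color Agilent arrays. The authors deposited, for each array, the spot intensity after the background subtraction of Agilent Feature Extraction, and a table of log2 values made by the authors with normalization unstated. Each column of that table followed its own array (lowest r = 0.9994) and its columns, once sorted, held the same values within 0.0024. The submitters' processing notes also name Partek 6.6. Groups and replicate numbers were read from the sample titles, since the treatment text describes DEX for all.

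Processed intensities were taken to log2, control and outlier spots were left out, repeated spots of a probe were averaged, and each array was scaled by subtracting its 75th percentile. One linear model with 4 groups was fitted to each of 41174 probes with limma 3.58.1 (lmFit, eBayes) under R 4.3.3, and the 5 comparisons were adjusted by Benjamini-Hochberg over all probes. Intervals are 95% intervals of that model. The script was tested on simulated data. No fold minimum was set. P-values rest on the spread between arrays within groups, each array from 1 mouse, which the model shares over the 4 groups. That spread holds differences between mice and between arrays together, and none between slides. The small number of arrays in a group limits the precision. Within groups, arrays correlated with r between 0.982 and 0.988.

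The named genes are the 9 members, read at the probe of highest mean where 1 is needed, the 5 genes closest to *Nr3c1* and to *Fkbp5* by r over the arrays, and up to 6 called genes of each list by smallest adjusted p. Probes were named through RefSeq accessions (28223 of 41174). *Nudc*, *Pdia3*, *Zbtb16*, and *Prss1* of the lists were not matched. The members and lists were chosen with earlier results of these data known. The alternatives tried were other background corrections and normalizations, the authors' log2 table, and filters on dim probes and outlier spots. Further ones were only the groups compared, a fold minimum of 2, Student's t-test, and the replicate number as a block. The mean of the probes of a gene and each array left out in turn were also tried. The build of the array design was not used for coordinates, and the promoters are from RefSeq on GRCm38.p6 (5 of the 9 members matched).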

Additional observations from a re-analysis of the deposited data

Results flagged for a closer look

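The DEX response of *Fkbp5* differed between the genotypes in a test of the difference itself, with −2.71 on the log2 scale over the 14 arrays. In GR iKO mice given DEX, replicate 1 stood apart at the brighter *Hsp90ab1* probe, with a level of 5.07 against 4.77 to 4.80 in the other 3 arrays, a gap of 0.876 of the range of the group. In Flox mice given PBS, replicate 2 stood apart at *Stip1*, with 1.39 against 1.29 to 1.31, a gap of 0.867 of the range. Chance sets apart about 1 in 20 groups, and among the 18 groups of 4 arrays examined 0.9 would be reached by chance and 2 were found.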

How the results depend on the processing

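The study's methods name Student's t-test for small groups in general and refer to a supplement for the arrays. The 3 *Fkbp5* calls with DEX in Flox mice were kept under every alternative but this t-test after adjustment. In that comparison the t-test called 6 member probes at an unadjusted p under 0.05 and 0 after adjustment. That test also gave 0 after adjustment in the other 3 comparisons between 2 groups, and 11 unadjusted between genotypes under DEX. A normexp background correction lowered the member calls to 0 with DEX in GR iKO mice, 0 between genotypes under PBS, 1 under DEX, and 0 for the interaction (unadjusted p under 0.05 for 8, 3, 6, and 3 probes). It moved the median of all probes by 0.50 with DEX in Flox mice, −0.50 between genotypes under DEX, and −0.38 for the interaction. With only the groups compared, the counts were 2, 0, and 2 with DEX in GR iKO mice and between genotypes under PBS and DEX (unadjusted 9, 4, and 8). A 2-fold minimum left 1 with DEX in GR iKO mice and 1 between genotypes under PBS. For the interaction, quantile normalization and the authors' log2 table gave 0 (unadjusted 6 each), while quantile normalization within 3 parts of the array rows and leaving out dim probes gave 2 each, 2 probes of *Fkbp5*. With the replicate number as a replicate block, 1 was called between genotypes under PBS, 3 under DEX, and 0 for the interaction (unadjusted 6, 11, and 8). Whether same-numbered samples share more than a number is not known, and this check cannot exclude it. Their deviations had a median r of 0.0408 (−0.247 to 0.314), against −0.0156 for samples of other numbers. Of the 14 arrays, 5 were closest to their own number. Leaving out 1 array at a time gave 1 to 5 calls with DEX in GR iKO mice (1 without GR iKO PBS replicate 3, 2 without GR iKO DEX replicate 2, 3 without GR iKO DEX replicate 3), 0 to 3 between genotypes under PBS (0 without Flox PBS replicate 3, 1 without GR iKO PBS replicate 3), 3 to 5 under DEX, and 0 to 2 for the interaction. The causes of these shifts were not tested.

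Differences that turned sign were never called. With normexp these were, with DEX in Flox mice, *Hsp90aa1* (−0.08), *Hsp90ab1* (−0.15), *Ptges3* (−0.08), *Stip1* (−0.06), and *Hspa8* (−0.11), between genotypes under DEX, *Hsp90aa1* (0.10), *Hsp90ab1* (0.07), *Hspa8* (0.10), and *Dnajb1* (0.12), and for *Hsp90ab1* under PBS (0.02) and for its interaction (0.05). Quantile normalization turned *Hsp90aa1* with DEX in GR iKO mice (0.05), and within 3 parts *Hsp90ab1* there (0.08) and for the interaction (0.0033). The replicate block turned *Hsp90ab1* under PBS (0.02) and the *Dnajb1* interaction (−0.02). The mean of all probes turned *Hsp90ab1* with DEX in Flox mice (−0.05) and under PBS (0.10), *Dnajb1* with DEX in Flox mice (0.01), and the interactions of *Nr3c1* (0.0041) and *Dnajb1* (−0.12). With 1 array left out, the values ran from −0.14 to 0.07 for *Hsp90aa1* and −0.33 to 0.07 for *Hsp90ab1* with DEX in GR iKO mice, from −0.01 to 0.20 for *Hsp90aa1*, −0.19 to 0.20 for *Hsp90ab1*, and −0.09 to 0.11 for *Stip1* under PBS, from −0.18 to 0.0024 for *Dnajb1* with DEX in GR iKO mice, and from −0.39 to 0.01 for *Hsp90ab1* and −0.05 to 0.12 for *Dnajb1* for the interaction.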
